A study of Homo sapiens with 2 samples.

Results

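Focal adhesions are the sites where integrins, the receptors for the extracellular matrix, are tied to the actin cytoskeleton. Inside the cell, talin binds the integrin tail, vinculin and the tensins strengthen the link to actin, and zyxin joins as the adhesion matures under tension. Focal adhesion kinase (FAK) and the scaffold proteins p130Cas and paxillin pass the signal on, and integrin-linked kinase (ILK), a pseudokinase, anchors a complex with parvin and PINCH. The transcripts of 10 such adaptors and kinases were followed here, namely TLN1, VCL, ZYX, TNS1, TNS3, PTK2, BCAR1, PXN, ILK and PARVA. They were taken from the deposited table by symbol, and all 10 were found among its 58735 genes.

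The table holds RNA sequencing of A2780, an established human ovarian cancer cell line, with 1 library labelled shJAM3 and 1 labelled shControl. The first is of JAM3 knockdown genotype by its label, and the second is labelled wild type and, in the design text, an empty-vector control. JAM3 encodes junctional adhesion molecule C, a protein of cell-cell contacts, and the series title places its silencing beside the PI3K/AKT pathway in serous ovarian carcinoma. The design text names siRNA where the titles carry the prefix sh, and the labels do not say whether the shJAM3 cells were 1 clone or a pool. The libraries held 16455079 (shJAM3) and 15570262 (shControl) fragments assigned to genes.

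JAM3 itself had 14 fragments in shJAM3 and 18 in shControl, a ratio of 0.716 with a 95% counting interval of 0.330 to 1.52. A difference in the targeted gene was therefore not detectable at this depth. The reduction of more than 70% that the design text states would leave a ratio below 0.3, which the interval does not reach, but that interval covers counting error only. NCAPD3 on the opposite strand shares 8.53% of the annotated JAM3 exon bases, and was at 36.0 FPKM in shJAM3 and 27.5 in shControl. Whether its fragments were counted for JAM3 was not tested, so the stated reduction cannot be checked from these fragments. The names shJAM3 and shControl stand below for the libraries so labelled. Of the 11 epithelial and ovarian carcinoma markers, KRT7, KRT8, KRT18, MSLN and FOLR1 were measured, from 93.4 FPKM (KRT7) to 1012 (FOLR1) in shJAM3 and from 139 (KRT8) to 845 (FOLR1) in shControl. The other 6 averaged under 1 FPKM. CDH1 was at 0.243 FPKM in shJAM3 and 0.169 in shControl, EPCAM at 0.690 in shJAM3 and 0.904 in shControl, PAX8 at 0.527 in shJAM3 and 1.12 in shControl, and WT1 had 0 fragments in shJAM3 and 1 in shControl. MUC16 was at 1.07 FPKM in shJAM3 and 0.475 in shControl, and KRT19 had 3 fragments in shJAM3 and 1 in shControl. The summed endothelial markers were at 0.405 FPKM in shJAM3 and 0.482 in shControl, and the leukocyte markers at 1.36 FPKM in shJAM3 and 2.66 in shControl. Of the leukocyte sum CD14 gave 0.763 FPKM in shJAM3 (24 fragments) and 2.28 in shControl (66 fragments), while PTPRC had 0 fragments in both. The fibroblast list summed to 14.4 FPKM in shJAM3, of which COL1A1 gave 11.3, and 17.4 FPKM in shControl, of which it gave 13.5, while COL1A2 had no fragment. PDGFRB of the same list was at 2.99 FPKM in shJAM3 and 3.79 in shControl.

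With 1 library a group there is no test of the conditions, no p-value and no replicate check. FPKM is the number of fragments scaled to gene length and library size. The length takes all annotated exons of a gene together, so levels of different genes set side by side depend on that length. Each value carries the 95% interval that its fragment number allows, which covers counting error only, since PCR copies are not independent molecules and the spread between cultures is not in it. Differences are shJAM3 minus shControl on the log2(FPKM + 1) scale, which draws genes near 1 FPKM towards 0. In place of a test, a gene was called lower or higher when that difference reached 0.585, that is 1.5-fold. Fewer cells of a kind and less RNA per cell cannot be told apart in such bulk libraries.

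The upstream sequence of 3 members of the actin link is given first. ZYX, VCL and TLN1 were taken because they have a single start each in the RefSeq table used and all 3 were lower in shJAM3. Of the 3, VCL alone reached the 1.5-fold rule. After centring on GC content as described below, VCL was at -0.76, TLN1 at -0.10 and ZYX at -0.02. The windows hold the 250 bases before the start on the gene's own strand, from RefSeq on GRCh38.p14, and these starts lie inside the gene bounds of GENCODE 29 that are given below for coordinates. Capitals mark GGGCGG, the core of the SP1 motif, on either strand (CCGCCC where it lies on the other).
ZYX (chr7:143381095-143381344, plus strand): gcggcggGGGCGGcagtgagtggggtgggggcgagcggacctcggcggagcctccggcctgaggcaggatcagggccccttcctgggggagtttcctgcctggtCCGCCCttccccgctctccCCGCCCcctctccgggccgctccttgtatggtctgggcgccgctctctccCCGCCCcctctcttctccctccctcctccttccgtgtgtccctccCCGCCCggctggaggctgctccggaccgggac
VCL (chr10:73997866-73998115, plus strand): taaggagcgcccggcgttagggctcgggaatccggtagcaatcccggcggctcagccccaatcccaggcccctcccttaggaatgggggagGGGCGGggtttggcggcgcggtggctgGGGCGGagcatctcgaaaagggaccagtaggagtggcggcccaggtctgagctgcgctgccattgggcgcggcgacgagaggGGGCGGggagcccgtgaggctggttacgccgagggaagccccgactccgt
TLN1 (chr9:35732196-35732445, minus strand): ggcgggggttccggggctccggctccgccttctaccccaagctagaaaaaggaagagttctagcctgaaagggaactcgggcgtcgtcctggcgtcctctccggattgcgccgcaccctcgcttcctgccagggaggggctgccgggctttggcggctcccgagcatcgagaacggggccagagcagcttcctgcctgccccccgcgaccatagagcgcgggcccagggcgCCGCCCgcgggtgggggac

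The motif occurred 5 times before ZYX, 3 times before VCL and 1 time before TLN1. These windows are rich in G and C, with 74.8%, 70.4% and 70.8% of their bases. RefSeq windows of 8 of the 10 members were searched, 19 in all since several genes have more than 1 start, and none of PTK2 or PARVA. GGGCGG was in 13 of the 19 windows, beside 42.6% of the 35116 windows in the table. The share of all genes with at least 1 such window was not computed. GGAATG, the core of the TEAD motif, was in 4 of the 19 windows, belonging to TNS1, PXN and VCL, beside 11.9% of all windows. The CArG box of serum response factor was in none of the 19, beside 1.16% of all windows. Such matches describe letters only.

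Most of the adaptors and kinases were lower in shJAM3, but fewer stood out once GC content was taken into account. Their summed level was 162.9 FPKM in shJAM3 (23564 fragments) and 233.5 in shControl (30197 fragments). Of the 10 members 8 were lower and 2 higher, beside 49.5% of the 12214 measured genes that were lower. A gene counted as measured when its 2 FPKM values averaged 1 or more, and all 10 members passed. The members had a median difference of -0.41, or -0.14 after centring on GC content as described below, and all measured genes one of 0.00. By the 1.5-fold rule BCAR1, TNS3, VCL and PXN were lower, 4 of 10, beside 9.82% of measured genes, and no member was higher, beside 7.11%. No member reached 2-fold, beside 2.1% of measured genes on the lower side and 1.3% on the higher. The counting interval of the ratio lay below 1 for 6 members, beside 33.6% of measured genes, and above 1 for 1 member, PARVA, beside 33% of measured genes.

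**Figure D1:**
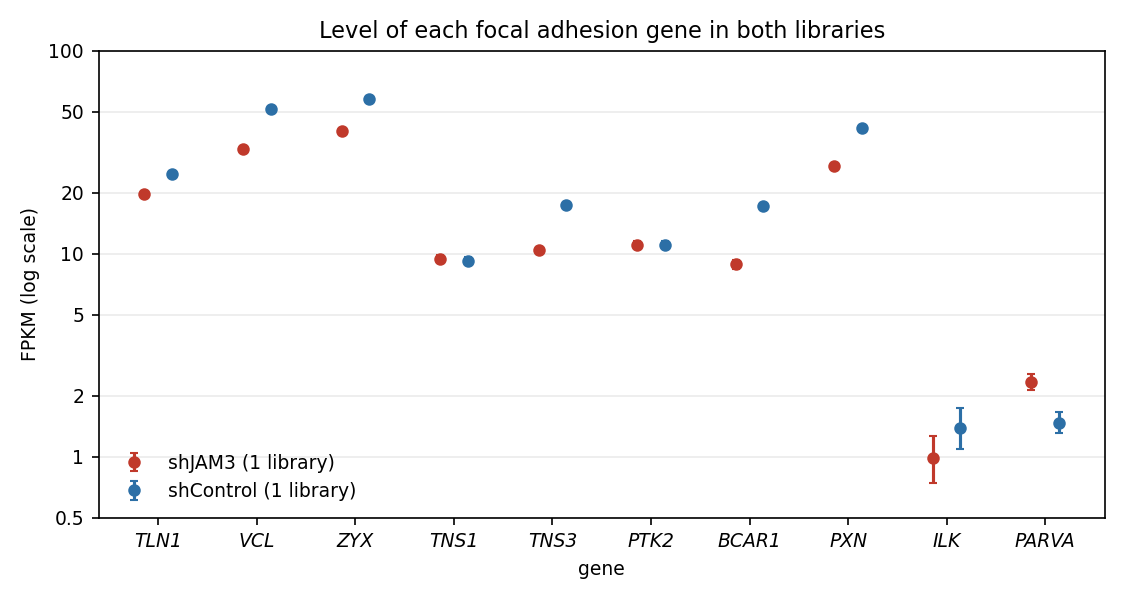
Level of each gene in FPKM on a log axis, in shJAM3 (red, left of each pair) and shControl (blue, right), 1 library each, with bars for the 95% Poisson interval of the fragment number. ZYX, VCL and PXN are the highest in both libraries and ILK and PARVA the lowest; the red points lie below the blue for 8 genes.

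The differences between the libraries varied with transcript GC content, and the members are spread along it. Among 10496 measured protein-coding genes in 20 bins of GC content, the median difference was 0.24 in the bin with the lowest GC and -0.50 in the bin with the highest. The members' longest transcripts range from 44.2% GC (PARVA) to 64.9% (ZYX). After each gene was set against the median of its own bin, the median of the members was -0.14, and 2 of 10, VCL and TNS3, were past 1.5-fold, beside 6.23% of measured genes on the lower side and 5.91% on the higher. The GC-centred value stands beside the difference of each member below.

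**Figure D2:**
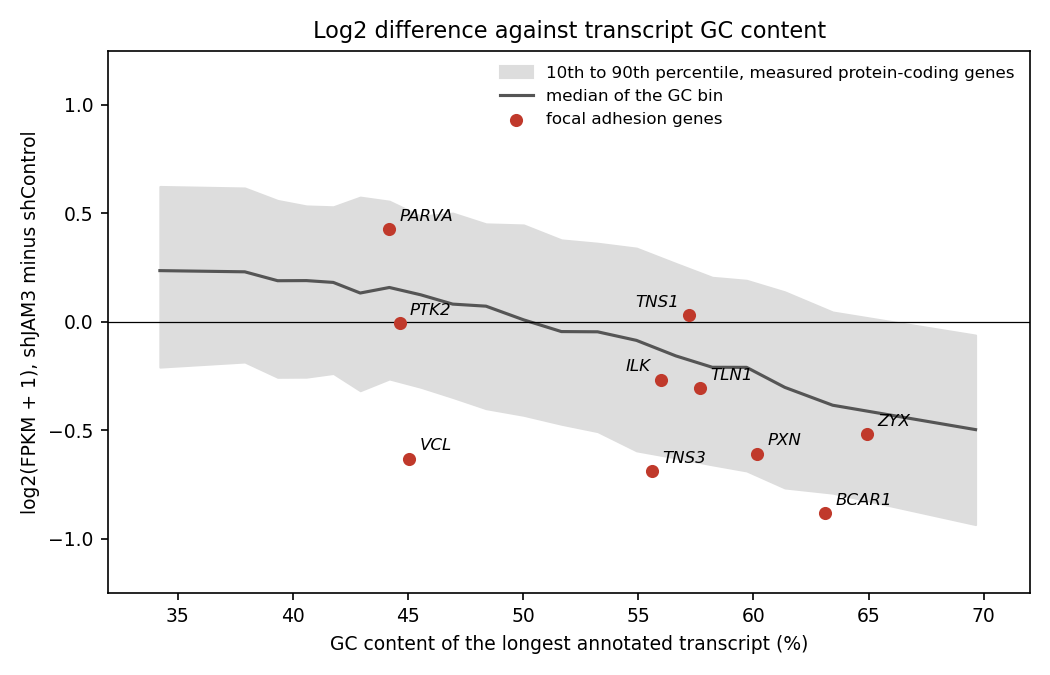
Difference on the log2(FPKM + 1) scale, shJAM3 minus shControl, against the GC content of the longest annotated transcript in percent; red points are the 10 genes, the line is the median of measured protein-coding genes in each of 20 GC bins and the grey band their 10th to 90th percentile. VCL (-0.63 at 45.1% GC), TNS3 and BCAR1 lie below the band, ZYX (-0.52 at 64.9%) lies near the line and PARVA above it.

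Among the proteins of the actin link, VCL was the member furthest below genes of like GC content. VCL encodes vinculin, which binds talin and actin when the adhesion is under load, and lies on chromosome 10 (73995193 to 74121363, plus strand, GRCh38). It was at 33.0 FPKM in shJAM3 (5495 fragments) and 51.6 in shControl (7921 fragments), a ratio of 0.639 (0.617 to 0.661). The difference of -0.63 became -0.76 after GC centring, and 1.72% of the genes in its GC bin had a lower one. The gene AP3M1 on the opposite strand shares 11.1% of the annotated VCL exon bases. AP3M1 was itself at 19.1 FPKM in shJAM3 and 13.4 in shControl, and the part of this overlap in the VCL values was not tested.

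TLN1 encodes talin-1, the protein that binds and activates integrins, and lies on chromosome 9 (35696948 to 35732395, minus strand). It was at 19.8 FPKM in shJAM3 and 24.7 in shControl, a ratio of 0.802 (0.765 to 0.840). Its difference of -0.31 fell short of the 1.5-fold rule and was -0.10 after GC centring. Talin-1 made up nearly the whole of the talin transcripts, with 96.5% of the summed talin FPKM in shJAM3 and 97.3% in shControl. The paralog TLN2 had 0.725 FPKM in shJAM3 and 0.675 in shControl, and the interval of its ratio, 0.870 to 1.33, includes 1.

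ZYX encodes zyxin, a LIM-domain protein that recruits actin-assembly factors to strained adhesions, and was the most abundant member in both libraries. It lies on chromosome 7 (143381080 to 143391111, plus strand). ZYX was at 40.1 FPKM in shJAM3 (2327 fragments) and 57.8 in shControl (3090 fragments), a ratio of 0.694 (0.657 to 0.732). The difference of -0.52 was just short of the 1.5-fold rule. It was -0.02 after GC centring, where 47.5% of the genes in its bin had a lower value, so ZYX was close to other genes of high GC content. Its paralog TRIP6, at 52.3 FPKM in shJAM3 and 72.6 in shControl, had a similar ratio of 0.720 (0.682 to 0.759). The third family member, LPP, was at 3.39 FPKM in shJAM3 and 3.09 in shControl, a ratio of 1.10 (1.02 to 1.18). After GC centring TRIP6 was at -0.08 and LPP at -0.09, so both lay near 0 as ZYX did. ZYX held 41.9% of the family's FPKM in shJAM3 and 43.3% in shControl.

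The tensins, which bind actin and the integrin tail and take over in long-lived adhesions, differed among themselves. TNS3 lies on chromosome 7 (47275154 to 47582558, minus strand) and TNS1 on chromosome 2 (217799588 to 218033982, minus strand). TNS3 was at 10.4 FPKM in shJAM3 (2043 fragments) and 17.4 in shControl (3147 fragments), a ratio of 0.598 (0.565 to 0.632). Its difference of -0.69 was still -0.60 after GC centring, and 5.90% of its GC bin had a lower one. TNS1 was at 9.44 FPKM in shJAM3 and 9.23 in shControl, a ratio of 1.02 (0.967 to 1.08) that includes 1. Its difference was 0.03, or 0.19 after GC centring. The counting intervals of TNS3 and TNS1 do not overlap. Their longest annotated transcripts have a GC content of 55.6% (TNS3) and 57.2% (TNS1).

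TNS4, a short tensin without the actin-binding part, was the most abundant of the family. It was at 29.6 FPKM in shJAM3 and 24.2 in shControl, a ratio of 1.22 (1.15 to 1.30). TNS2 had 1.99 FPKM in shJAM3 and 1.87 in shControl, with an interval of the ratio from 0.893 to 1.28. TNS3 thus held 20.2% of the summed tensin FPKM in shJAM3 and 33.0% in shControl, while TNS4 held 57.6% in shJAM3 and 46.0% in shControl. In fragments, 2043 of 7268 tensin fragments came from TNS3 in shJAM3, or 28.1% (27.1 to 29.2, exact binomial), against 3147 of 7489 in shControl, or 42.0% (40.9 to 43.1). The summed tensin level was 51.4 FPKM in shJAM3 and 52.7 in shControl, so the makeup of the family differed more than its total.

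**Figure D3:**
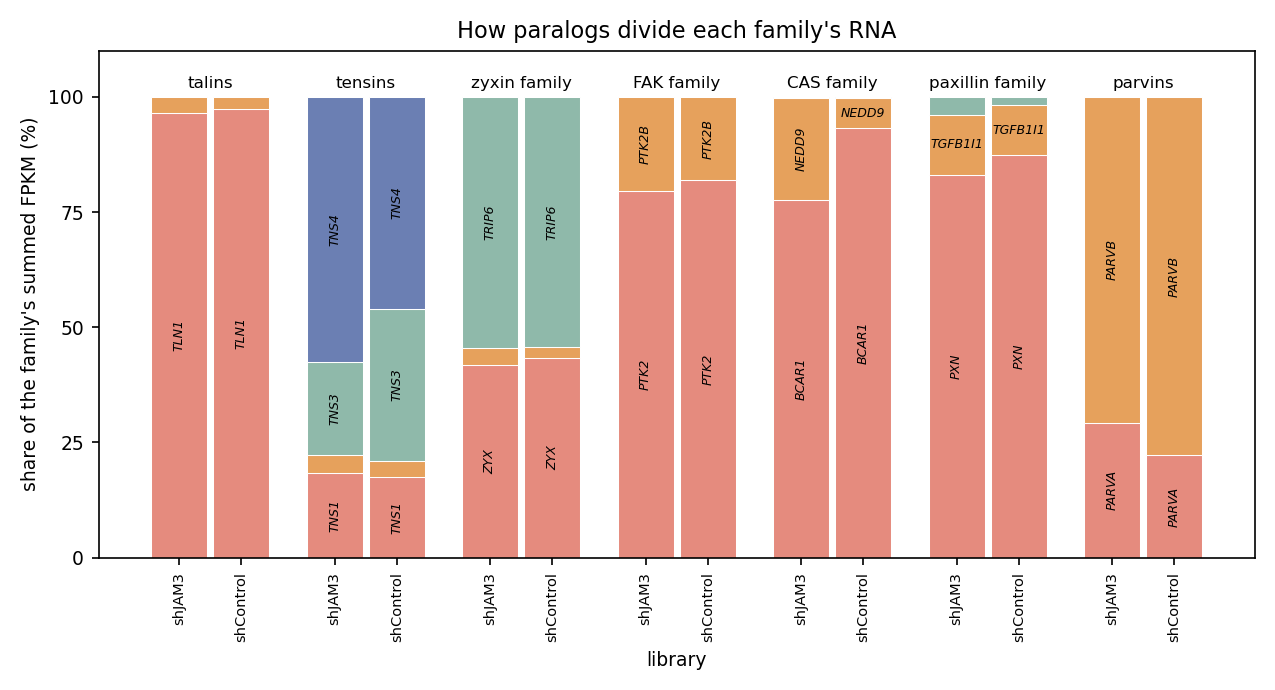
Share of each family's summed FPKM in percent taken by each paralog, with shJAM3 left and shControl right in each pair. The CAS family (BCAR1 77.6% in shJAM3 and 93.3% in shControl) and the tensins (TNS3 20.2% in shJAM3 and 33.0% in shControl) show the largest shifts; talins and FAK family differ little.

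Of the signalling members, the kinase was level and both scaffolds were lower. PTK2, on chromosome 8, encodes FAK, the tyrosine kinase that integrin clustering activates. PTK2 was at 11.1 FPKM in both libraries, with 2534 fragments in shJAM3 and 2344 in shControl, a ratio of 0.996 (0.941 to 1.05). Its difference was -0.01, and it was positive with the FPKM set on the fragment totals (0.03) or centred by gene length (0.05). After GC centring it was -0.16. The related kinase PTK2B (PYK2) was at 2.83 FPKM in shJAM3 and 2.46 in shControl, a ratio of 1.15 (0.984 to 1.34).

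BCAR1 had the lowest ratio of the 10 members. It encodes p130Cas, a scaffold that FAK and SRC phosphorylate and that then docks the adaptor CRK, and lies on chromosome 16 (75228187 to 75268053, minus strand). BCAR1 was at 8.85 FPKM in shJAM3 (1355 fragments) and 17.2 in shControl (2419 fragments), a ratio of 0.516 (0.482 to 0.552). Of all measured genes, 3.07% had a difference below its -0.88. With its transcript at 63.1% GC the value was -0.50 after GC centring, no longer past 1.5-fold, and 5.71% of its GC bin lay lower. Other annotated genes share 8.71% of its exon bases, and the part of this overlap in its values was not tested. AC009078.3, on the same strand, shares 8.59% and was at 0.0587 FPKM in shJAM3 and 0.367 in shControl. AC009078.2, on the opposite strand, shares 0.12% and was at 0.0416 FPKM in shJAM3 and 0.813 in shControl.

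The other expressed member of the CAS family went the other way. NEDD9, which encodes the scaffold HEF1, was at 2.54 FPKM in shJAM3 (438 fragments) and 1.16 in shControl (185 fragments), a ratio of 2.18 (1.83 to 2.60). It was past 1.5-fold on the higher side, with a difference of 0.71, or 0.63 after GC centring. BCAR1 accordingly held 75.5% (73.4 to 77.5) of the 1795 CAS family fragments in shJAM3 and 92.7% (91.7 to 93.7) of 2609 in shControl. EFS had no fragment in either library, which allows it a share of up to 0.167% in shJAM3 and 0.115% in shControl, taking 3 fragments as the limit. CASS4 had 2 fragments in shJAM3 and 5 in shControl. BCAR3, which binds p130Cas directly, was at 30.0 FPKM in shJAM3 and 61.1 in shControl, a ratio of 0.491 (0.471 to 0.512). Its difference of -1.001 was barely past 2-fold. After GC centring BCAR3 lay at -0.96, short of 2-fold, and departed from genes of like GC content more than BCAR1 did.

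PXN encodes paxillin, the docking protein for FAK, vinculin and parvin, and lies on chromosome 12 (120210439 to 120265771, minus strand). It was at 27.1 FPKM in shJAM3 (3366 fragments) and 41.7 in shControl (4784 fragments), a ratio of 0.648 (0.620 to 0.677). The difference of -0.61 was past the 1.5-fold rule by a small margin, and it was -0.57 with the FPKM set on the fragment totals and -0.40 after GC centring, both short of the rule. Antisense transcripts share 12.4% of its exon bases, the largest being PXN-AS1 at 1.91 FPKM in shJAM3 and 1.45 in shControl. The paralogs were less abundant. TGFB1I1 (HIC-5) was at 4.22 FPKM in shJAM3 and 5.11 in shControl, a ratio of 0.825 (0.717 to 0.950), and LPXN (leupaxin) at 1.29 FPKM in shJAM3 and 0.897 in shControl, a ratio of 1.44 (0.916 to 2.28).

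**Figure D4:**
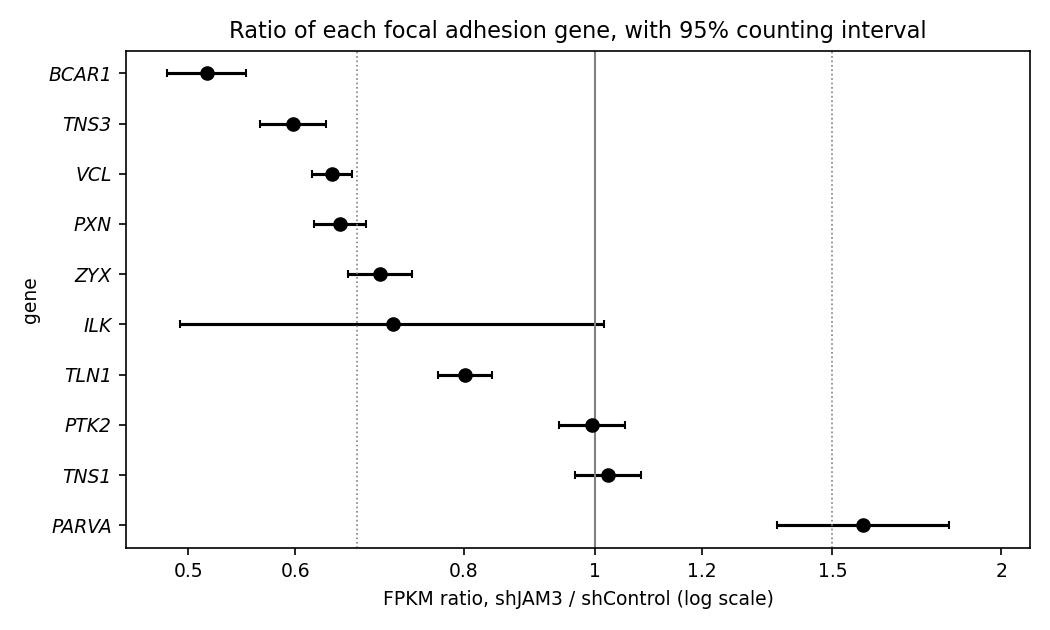
FPKM ratio of shJAM3 to shControl for each gene on a log axis, with bars for the exact 95% counting interval; the solid line marks a ratio of 1 and the dotted lines 1.5-fold. BCAR1, TNS3, VCL and PXN lie left of the lower dotted line, TNS1, PTK2 and ILK have intervals that include 1, and PARVA alone lies to the right.

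ILK and PARVA, which work as a complex with PINCH, were the 2 least abundant members. ILK lies on chromosome 11 (6603708 to 6610874, plus strand) and was at 0.981 FPKM in shJAM3 (57 fragments) and 1.38 in shControl (74 fragments). The ratio of 0.709 (0.493 to 1.02) includes 1, so no difference was detectable at this depth. On the log2(FPKM + 1) scale it was -0.27, or -0.11 after GC centring. Other genes share 78.5% of the annotated ILK exon bases, 68.1% being shared with TAF10 on the opposite strand. The sources used here do not say how fragments in shared stretches were counted, and the part of this overlap in the low level of ILK was not tested. TAF10 was also low, at 2.17 FPKM in shJAM3 and 4.79 in shControl. Without ILK, 7 of 9 members were lower and the median difference was -0.52, or -0.16 after GC centring.

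PARVA was the only member above 1 with its whole interval. It encodes alpha-parvin, which links ILK to actin, lies on the same chromosome (12377185 to 12535356, plus strand), and shares no exon base with another gene. PARVA was at 2.33 FPKM in shJAM3 (499 fragments) and 1.47 in shControl (291 fragments), a ratio of 1.58 (1.36 to 1.83). On the log2(FPKM + 1) scale, which draws in such low genes, the difference was 0.43 and did not reach the 1.5-fold rule. With 0.1 FPKM added in place of 1 it was 0.63, past it, and after GC centring it was 0.27. The paralog PARVB was more abundant, at 5.64 FPKM in shJAM3 and 5.17 in shControl, a ratio of 1.09 (0.975 to 1.22). PARVA held 29.2% of the parvin FPKM in shJAM3 and 22.2% in shControl, and PARVG had 0 fragments in shJAM3 and 1 in shControl.

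The order of the 10 levels was the same at the top in both libraries, with ZYX first, then VCL, PXN and TLN1, each apart from the next by more than counting error. In shJAM3 the next were PTK2 and TNS3, whose intervals overlap, then TNS1 and BCAR1, whose intervals also overlap. In shControl TNS3 and BCAR1 came next and were within counting error of each other, ahead of PTK2 and then TNS1. BCAR1 stood eighth in shJAM3 and sixth in shControl. PARVA and ILK were last, within counting error of each other in shControl and apart in shJAM3.

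The proteins around these members were described with 4 lists, 90 genes in all, of which 68 were measured. Of these 41 were lower and 27 higher, with a median difference of -0.14, and 6 were lower by 1.5-fold and 3 higher, which is no larger a share than the 9.82% and 7.11% of all measured genes. Of the 68, BCAR3 alone reached 2-fold, by a very small margin. After GC centring 4 were past 1.5-fold on the lower side (BCAR3, LIMS1, ITGAV and ARHGAP35) and 1, NEDD9, on the higher, again no more than the 6.23% and 5.91% of all measured genes.

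On the actin side, 16 of 23 measured genes were lower and 7 higher, with a median of -0.19, or -0.09 after GC centring. VASP, an actin-polymerising factor that zyxin recruits, was at 49.8 FPKM in shJAM3 and 84.8 in shControl, a ratio of 0.587 (0.560 to 0.615). VASP was past 1.5-fold, but fell short of it at -0.55 after GC centring. The PDZ and LIM protein gene PDLIM7 had a ratio of 0.709 (0.662 to 0.758), but was at -0.09 after GC centring.

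Around ILK, 3 of 7 measured genes were lower and 4 higher, with a median of 0.07 that was -0.06 after GC centring. LIMS1, which encodes PINCH-1, was at 10.4 FPKM in shJAM3 and 14.6 in shControl, a ratio of 0.710 (0.661 to 0.763). LIMS1 belongs to a family with near-identical copies, and whether fragments were split among them was not tested. LIMS2 had a ratio of 0.642 (0.584 to 0.706). RSU1, which binds PINCH-1, was at 10.9 FPKM in shJAM3 and 6.62 in shControl, a ratio of 1.65 (1.47 to 1.87), the only gene of the list past 1.5-fold. After GC centring RSU1 was at 0.52 and LIMS2 at -0.17, short of the rule, and LIMS1 at -0.65, past it. The kindlins, which activate integrins with talin, split, FERMT2 having a ratio of 0.774 (0.728 to 0.823) and FERMT1 of 1.70 (1.33 to 2.20). After GC centring FERMT2 was at -0.583, just short of the rule, and FERMT1 at 0.40. FERMT3 had 4 fragments in shJAM3 and 10 in shControl.

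In the FAK, Cas and paxillin list, 16 of 28 measured genes were lower and 12 higher, with a median of -0.09, or -0.11 after GC centring. BCAR3, GRB7 and ARHGAP35 were lower by 1.5-fold, 3 of 28, beside 9.82% of all measured genes. NEDD9 and PTPN11 were higher, 2 of 28, beside 7.11%. GRB7 at -0.54 and PTPN11 at 0.46 were short of the rule after GC centring. GRB7, an adaptor that binds FAK, was at 4.35 FPKM in shJAM3 and 7.98 in shControl, a ratio of 0.545 (0.466 to 0.637). ARHGAP35, which encodes p190RhoGAP, had a ratio of 0.611 (0.578 to 0.645), and PTPN11, which encodes the phosphatase SHP2, one of 1.59 (1.51 to 1.68). ARHGAP35, PTPN11 and ITGAV were named after their values were seen.

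Integrin receptors were measured for 10 of 20 genes, 6 of them lower and 4 higher, with a median of -0.30, or -0.20 after GC centring. ITGB1, the most widely shared beta subunit, was at 108.3 FPKM in shJAM3 and 74.0 in shControl, a ratio of 1.46 (1.42 to 1.51). ITGB4 was at 27.2 FPKM in shJAM3 and 47.8 in shControl, a ratio of 0.569 (0.543 to 0.595), and ITGA5, the fibronectin receptor subunit, had a ratio of 0.694 (0.671 to 0.717). Within this list ITGB4 alone was past 1.5-fold, and at -0.41 it was not after GC centring. ITGB1 was then at 0.35 and ITGA5 at -0.43. ITGAV had a ratio of 0.739 (0.687 to 0.794), and its difference of -0.40 became -0.63 after GC centring, past the rule.

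**Figure D5:**
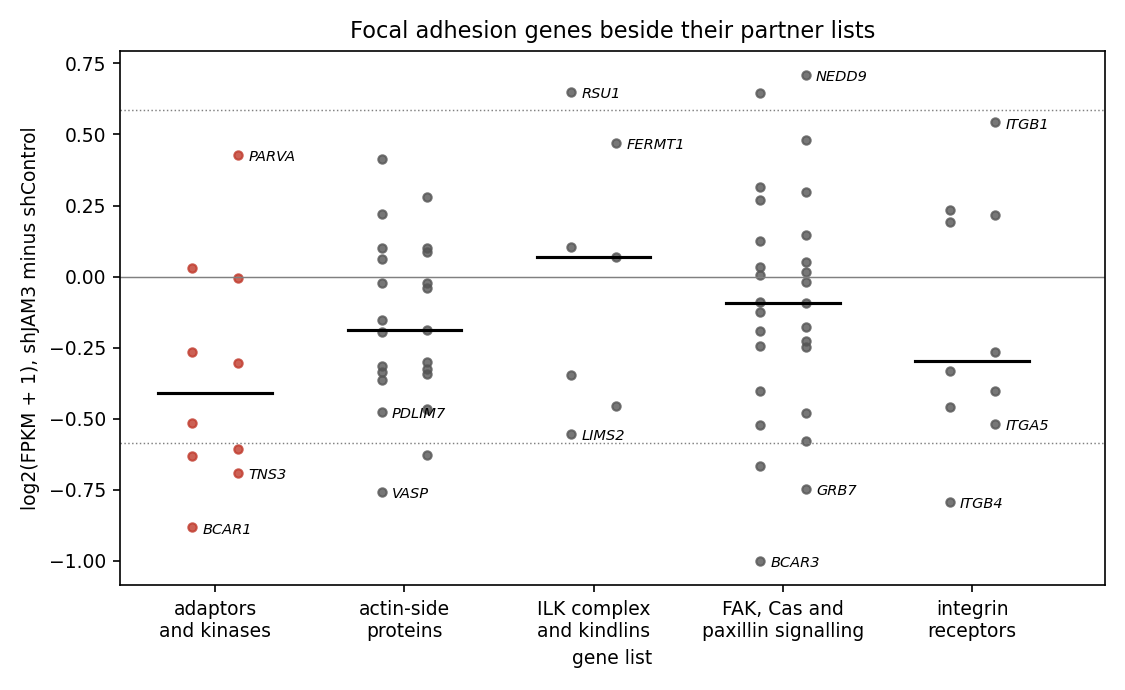
Difference on the log2(FPKM + 1) scale, shJAM3 minus shControl, for the 10 adaptors and kinases (red) and the measured genes of 4 partner lists (grey); black bars are list medians and dotted lines mark 1.5-fold. The members' median is -0.41, the others lie between -0.30 and 0.07, and BCAR3 and NEDD9 are the extremes of the signalling list.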

How the data were processed

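Both libraries were poly(A)-selected and fragmented per the labels' protocols, which mention neither strand marking nor molecular tags. The deposited values are FPKM per gene, made by the authors. Per the submitters' processing notes, HISAT2 2.0.5 and featureCounts 1.5.0-p3 were among the tools, with no role stated. No build is named in the labels or the file. All 58735 gene IDs, coordinates and exon lengths equalled those of GENCODE 29 (GRCh38).

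Multiplying FPKM by gene length gave whole numbers of a fixed unit in each library for 100% of values above 0 (tolerance 0.001 fragments), hence the fragments. The FPKM imply library sizes 1.01 (shJAM3) and 0.987 (shControl) times the totals, so they carry a further scaling. Of rows sharing a symbol the most abundant was kept, which left 57169. Ratio intervals are exact conditional binomial, level intervals Poisson. Transcript GC content came from GENCODE 29. Analysis used Python 3.11.15 with scipy 1.17.1 and was tested on simulated data. Alternatives tried were a smaller pseudocount, other scalings, GC and length centring, other filters, and the counting interval as an added condition.

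Members and lists were chosen with earlier results of these data known. The rule for naming took the members, JAM3, the paralogs with a mean of at least 1 FPKM, ILK partners and the 3 genes furthest from 0 in each list. Paralogs below that level, genes overlapping a member or JAM3, and cell type markers are named in addition. A gene that this rule takes is not reported here. The protein motifs planned were not searched.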

Additional observations from a re-analysis of the deposited data

How the results depend on the processing

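The count of 4 members lower by 1.5-fold was 3 with the FPKM set on the fragment totals and 2 after GC centring, and 4 under the other alternatives tried. No member was past 2-fold under any of them. The members' median of -0.41 was -0.14 after GC centring and -0.56 at a mean of at least 5 FPKM, which keeps 8 members. GC centring moved 8 of the 10 single differences by more than counting error, with no change of sign, while the other scalings and the pseudocount of 0.1 FPKM moved none by that much. PTK2 alone changed sign, on fragment totals and by gene length. Among the family shares, 2 differences moved when taken from fragments in place of FPKM. The ZYX share, shJAM3 minus shControl, was -1.42 percentage points by FPKM and -4.14 by fragments, and the TNS1 share 0.84 and 4.46. Over all features, 1200 of 12214 genes were lower by 1.5-fold, against 761 of 12211 after GC centring and 787 of 7151 at 5 FPKM. On the higher side 869 of 12214 were called, against 1408 of 12214 with the pseudocount of 0.1 FPKM, 1365 of 57169 with no filter, 424 of 7151 at 5 FPKM and 538 of 10499 protein-coding genes. Where the filter or gene class differs, the number of genes tested differs with it. No paired analysis was possible because each group holds 1 library, and for the same reason no library could be left out. Low fragment numbers limit ILK among the members, with 57 fragments in shJAM3 and 74 in shControl, and also JAM3 and the scarce paralogs.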
